A study of Mus musculus with 8 samples.

Results

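Cell cycle and DNA replication genes were followed in the hearts of adult mice through a list of 37 genes, taken by gene name from the array's own annotation (the older name Cdc2a counting for Cdk1). The list held replication factors, G1 regulators and genes of S phase, G2 and mitosis, and the 37 genes had 60 probes among the 41174 on the array. The brightest probe stood for each gene, and 29 of the 37 genes were tested among 15660 features. Total RNA from whole hearts of 8 male mice aged 12 weeks was hybridised, each to 1 Agilent 1-colour array: 4 wild-type (WT) mice and 4 mice overexpressing PKR2, read here as the prokineticin receptor 2 (gene Prokr2). Strain, the promoter that drives the transgene and the cells that carry it are not given in the sources used here, and no other treatment is named for either group. Nothing in the labels says whether the mice of a group were littermates. The replicates are therefore separate hearts whose shared origin is unknown. Levels are log2 signal relative to the 75th percentile of all non-control probes of the same array, so 0 is that percentile, and differences are PKR2 minus WT on this scale.

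In a dividing cell, D cyclins and cyclin E drive the passage out of G1 and release E2F factors, which switch on the genes of DNA replication. The MCM helicase then opens origins, polymerases copy the DNA with the sliding clamp PCNA, and cyclins A and B with CDK1 carry the cell through G2 and mitosis. Most cardiomyocytes of the mouse leave the cell cycle soon after birth, and in the adult heart cycling cells are mainly found among the endothelial, stromal and blood-derived cells. In RNA of a whole heart, fewer cycling cells and less RNA per cycling cell cannot be told apart.

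On the 8 arrays between 48.3% (WT 2) and 67.1% (PKR2 1) of non-control spots were well above background, the scanner software's flag for a signal clear of its local background. The 7 cardiomyocyte markers examined were above background on every array, at levels between 4.48 and 9.97. For Prokr2 itself, 0 of 8 arrays had a probe signal well above background, with levels between -7.35 and -5.25, so that it checks neither group's label. Whether this probe matches the transgene is not given in the sources used here. Of the 6 slides, 2 held both groups: slide 5 with WT 3 and PKR2 3, and slide 6 with WT 4 and PKR2 4. All 4 PKR2 arrays and WT 1 were at position 4 of their slide. The 6 tested adipocyte markers had a median difference of -2.26, with mean levels relative to each gene's own average between -0.038 and 1.53 in WT hearts and between -3.002 and 0.74 in PKR2 hearts. A fit took the adipocyte level as a covariate. No cell cycle gene passed the threshold in it, and none passed without the covariate, so that count does not show the markers' part. Single differences moved in both directions, among them Cdk1 from 0.11 to 0.51, Mki67 from 0.026 to 0.31 and Ccne1 from 0.11 to 0.00075. The part of the adipocyte markers in the results for the cell cycle genes was not tested further.

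Promoter sequence is shown because the replication genes and the mitotic genes of the list differed in the motifs near their start sites. Windows from 250 bases before to 50 bases after the start (RefSeq, GRCm38.p6) were present for 29 of the 37 genes. Mcm4, Ccnd1, Ccnd2, Ccna2, Foxm1, Aurkb, Kif20a and Tpx2 are named without a window. The 4 motifs searched on both strands were the cell cycle genes homology region (CHR), spelled TTTGAA, its variant TTCGAA, the box CCAAT, bound by NF-Y, and an E2F site, spelled TTTGGCGC, TTTCGCGC or TTTCCCGC. In the windows shown, matches are in capitals, including those on the opposite strand (ATTGG for CCAAT, GCGCGAAA for an E2F site).
Ccnb2 (chr9:70421505-70421804, minus strand): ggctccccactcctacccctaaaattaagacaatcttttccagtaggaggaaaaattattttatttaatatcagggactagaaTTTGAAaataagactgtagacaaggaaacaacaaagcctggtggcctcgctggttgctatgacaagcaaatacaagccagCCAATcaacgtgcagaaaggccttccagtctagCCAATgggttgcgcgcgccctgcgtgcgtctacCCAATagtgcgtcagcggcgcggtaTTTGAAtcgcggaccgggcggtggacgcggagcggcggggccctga
Mki67 (chr7:135716330-135716629, minus strand): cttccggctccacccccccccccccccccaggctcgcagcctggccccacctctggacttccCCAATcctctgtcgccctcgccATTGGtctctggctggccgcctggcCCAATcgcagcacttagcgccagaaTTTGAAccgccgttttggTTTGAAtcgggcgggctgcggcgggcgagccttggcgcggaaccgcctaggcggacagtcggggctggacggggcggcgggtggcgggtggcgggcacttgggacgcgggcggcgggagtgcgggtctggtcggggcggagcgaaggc
Mcm6 (chr1:128359656-128359955, minus strand): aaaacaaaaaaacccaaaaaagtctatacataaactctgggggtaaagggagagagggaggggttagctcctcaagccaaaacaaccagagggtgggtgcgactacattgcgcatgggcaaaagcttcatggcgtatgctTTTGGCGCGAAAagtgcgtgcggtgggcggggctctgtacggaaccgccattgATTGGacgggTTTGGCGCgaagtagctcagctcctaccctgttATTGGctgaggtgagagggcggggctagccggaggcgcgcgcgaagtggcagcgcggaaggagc
The window of Ccnb2, encoding a mitotic cyclin, held 2 CHR and 3 CCAAT matches. That of Mki67, the proliferation marker Ki-67, also held 2 CHR and 3 CCAAT matches. The window of Mcm6, a subunit of the replicative helicase, held no CHR match and 3 E2F matches, of which 2 overlap, with 2 CCAAT matches.

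A CHR match was present in 11 of the 16 genes of S phase, G2 and mitosis that had a window (68.8%) and in 1 of the 13 genes of replication and G1 control (7.69%, Mcm2), against 20.2% of 27025 genes in the whole table. The less common CHR variant TTCGAA was found in 4 of the 29 genes, against 1.80% of all genes. CCAAT was present in 14 of the 16 and in 9 of the 13, against 41.1% of all genes. An E2F match was found in 4 of the 13 genes of replication and G1 control (30.8%, all of them MCM genes) and in 1 of the 16 others (Cdk1), against 2.12% of all genes. Only 1 pair of matches to different motifs overlapped among the 79 matches in these windows. A match is a stretch of letters and says nothing on whether a factor binds there.

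Of the 37 genes, 24 (64.9%) were well above background on all 8 arrays, 9 on some arrays and 4 on none, compared with 58.0% on all arrays and 22.3% on none among 21317 genes with a symbol. By role, all 8 arrays were reached by 6 of 6 MCM genes, 3 of 4 genes of DNA synthesis, 5 of 6 of G1 control, 2 of 5 of the S, G2 and M cyclins, Cdk1 and Foxm1, 2 of 6 of the mitotic kinases and their partners, and 5 of 8 of the centromere, spindle and cytokinesis genes. The mitotic genes detected on every array were Ccna2, Ccnb2, Aurka, Cdc20, Birc5, Cenpa, Cenpe, Kif20a, Nusap1 and Mki67. Detection here is that of the brightest probe, and dimmer probes of the same genes differed. The second probes of Cenpa and Nusap1 were above background on 0 arrays, and 2 further Cenpe probes on 0 and 1. The second Mki67 probe was above background on 5 arrays and the second Kif20a probe on 8. Outside mitosis, the second probes of Mcm4 and Rrm1 were above background on 0 arrays and that of Mcm3 on 8. The 4 genes above background on no array were Ccnb1 (a mitotic cyclin), Aurkb (the kinase of the chromosomal passenger complex), Bub1 (a spindle checkpoint kinase) and Kif11 (a spindle motor). Top2a, the topoisomerase that untangles replicated chromosomes, was above background on 1 PKR2 array, at levels from -6.72 to -4.39. E2f1, a transcription factor of the G1/S step, was above background on 1 array in each group, and Bub1b (spindle checkpoint) and Tpx2 (spindle assembly) on 2 in each. These 8 genes were not tested.

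Of the tested genes, 5 were above background on only some arrays: Rrm2 on 3 arrays in each group, Plk1 and Kif23 on 3 WT and 4 PKR2 arrays, Foxm1 on 2 WT and 3 PKR2 arrays, and Cdk1 on 1 WT and 4 PKR2 arrays. Cdk1, the kinase partner of cyclins A and B, and Foxm1, a transcription factor of G2 genes, entered the test through the PKR2 arrays, so that their group difference carries that selection. Between 24 (WT 2) and 33 (PKR2 1) of the 37 genes were above background on an array, and the same 2 arrays had the lowest and the highest share over all spots. Other genes of these pathways, from lists of 40 for origin firing and the replication fork, 24 for G1 control and 44 for G2 and mitosis, were above background on all 8 arrays in 31, 19 and 22 cases.

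**Figure D1:**
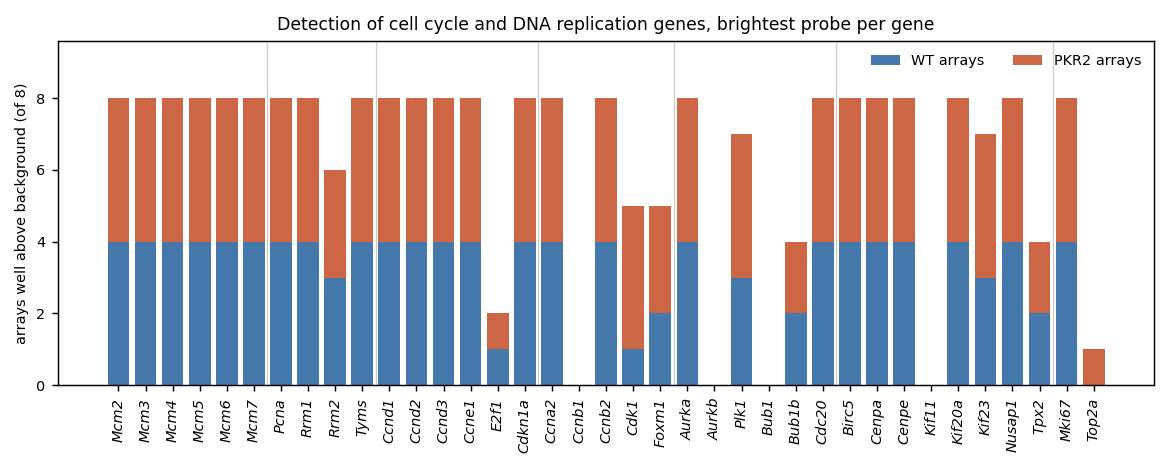
Number of arrays on which the brightest probe of each of the 37 genes was well above background (vertical axis, out of 8; blue WT arrays, orange PKR2 arrays), with thin lines between role groups. In the plot, 24 genes reach 8 arrays and Ccnb1, Aurkb, Bub1 and Kif11 have none.

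No cell cycle or replication gene passed the test for a difference between PKR2 and WT hearts. With limma, 0 of the 29 tested genes had an adjusted p under 0.05 (background 0% of 15660 features), 0 had an unadjusted p under 0.05 (background 2.42%, or 379 features), and in 0 genes did the groups not overlap (background 1.61%). Differences lay between -0.22 (Foxm1) and 0.34 (Ccnd2), with 17 of 29 above 0 (background 50.4%) and 12 below 0 (background 49.6%), and their median was 0.042 against 0.0015 for all features. The smallest adjusted p of a member was 0.9997. All 29 intervals of 95% contained 0 and lay within 1 log2 unit (2-fold) on either side, which held for 86.6% of all features. The bounds ran from -0.90 to 0.96, which as folds is 0.536 to 1.95. In 11 genes the interval stayed within 0.5 log2 units (37.9%, against 27.8% of all features). The 2-fold bound depends on the processing: 7 of 29 intervals passed it with the normexp background (Foxm1 to -1.50, Ccnd2 to 1.302), 7 with the adipocyte level as a covariate (Cdk1 to 1.60), 11 with position 4 as a covariate (Nusap1 to -1.92, Cdkn1a to 1.81), and 1 to 4 when 1 array was left out. With 4 hearts a group, the intervals give the range of differences that the data allow and are not limits of detection.

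**Figure D2:**
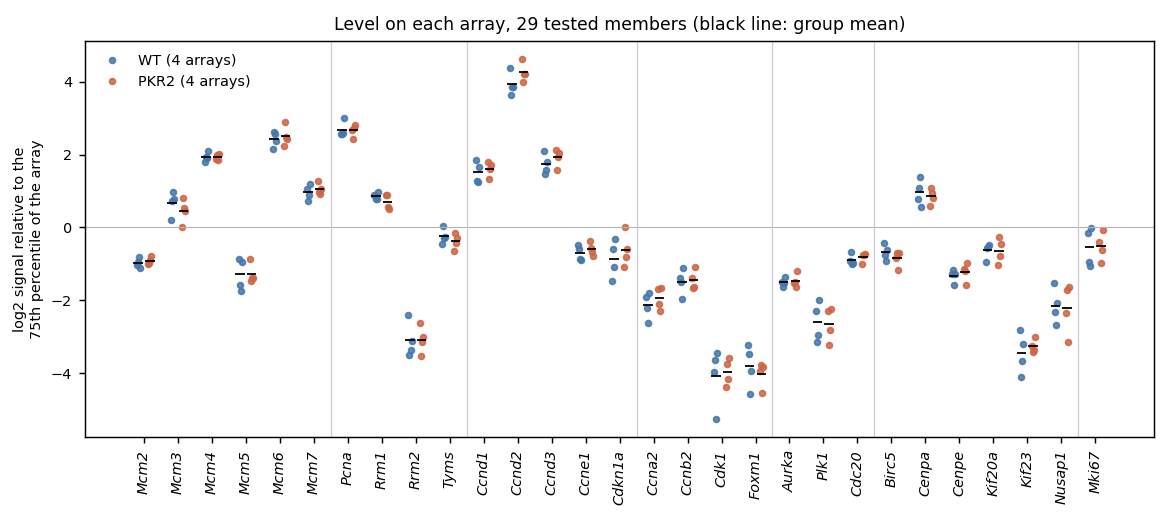
Level of each of the 29 tested genes on every array (vertical axis, log2 signal relative to the array's 75th percentile; blue WT, orange PKR2; black lines are group means, thin lines separate role groups). Points of the 2 groups overlap in every gene.

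**Figure D3:**
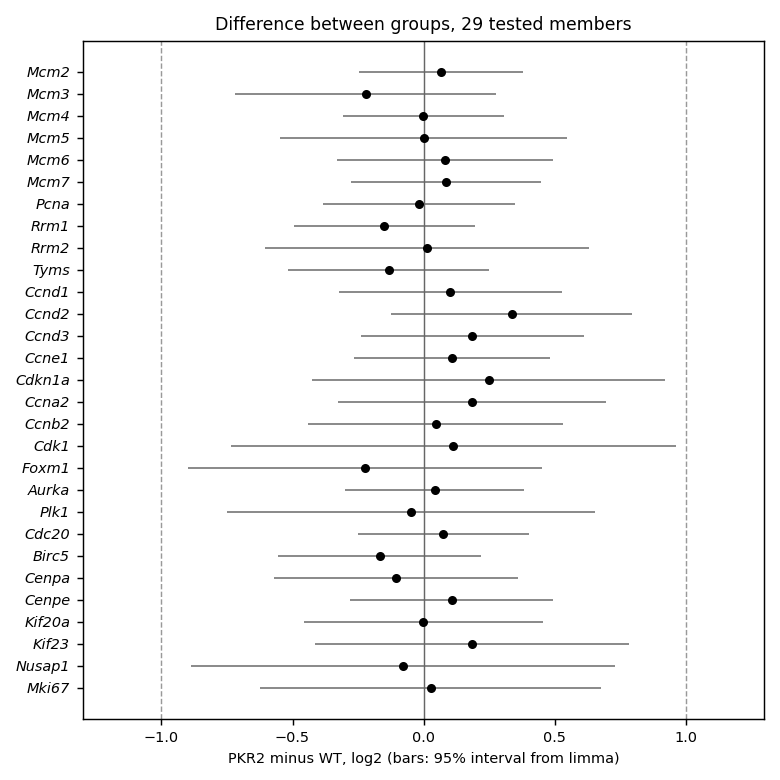
Difference between group means (PKR2 minus WT, log2, horizontal axis) with its 95% interval from limma for the 29 tested genes, and dashed lines at a 2-fold change. All bars cross 0 and end inside the dashed lines.

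The MCM genes encode the 6 subunits of the helicase that unwinds DNA at origins. Mcm6 (probe on chromosome 1, 130159147 to 130159206, mm8) had levels of 2.16, 2.61, 2.55 and 2.37 in WT 1 to WT 4 and of 2.23, 2.88, 2.48 and 2.41 in PKR2 1 to PKR2 4, a difference of 0.082 (SE 0.18, exact p = 0.686). Mcm3 had the smallest p of the group, with levels of 0.20, 0.73, 0.97 and 0.77 in WT and 0.011, 0.80, 0.52 and 0.44 in PKR2 hearts, with a difference of -0.22 (SE 0.22, exact p = 0.4). In both genes the ranges of the groups overlap, and in Mcm3 the lowest levels were those of WT 1 and PKR2 1. A second Mcm3 probe gave a difference of the other sign, 0.38. Of the 6 genes 3 had differences above 0 and 3 below, with a median of 0.033.

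Genes of DNA synthesis and nucleotide supply had a median difference of -0.076, with 1 of 4 above 0. Pcna, the sliding clamp of the polymerases, had levels of 2.57, 2.57, 2.60 and 3.003 in WT and 2.67, 2.44, 2.73 and 2.82 in PKR2 hearts, with a difference of -0.018 (SE 0.16, exact p = 0.914). WT 4 stood above the other WT hearts for Pcna and the groups overlap. Rrm1, the large subunit of ribonucleotide reductase, had levels of 0.88, 0.79, 0.79 and 0.97 in WT and 0.88, 0.90, 0.55 and 0.50 in PKR2 hearts, with a difference of -0.15 (SE 0.15, exact p = 0.314). PKR2 3 and PKR2 4 were lower than every WT heart for Rrm1, and PKR2 1 and PKR2 2 were not. Tyms, thymidylate synthase, had a difference of -0.13 (SE 0.17), and Rrm2, the small subunit of the reductase, of 0.012 (SE 0.28).

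All 5 tested genes of G1 control in the list had differences above 0, from 0.10 to 0.34 with a median of 0.18, and none passed the test. Of 20 further genes of G1 control outside the list, 9 lay above 0 and 11 below. With the normexp background correction Ccne1 was at -0.022. With position 4 of the slide as a covariate the 4 cyclins were below 0, and within slide 6 Cdkn1a was at -0.26. Ccnd2, a D cyclin (probe on chromosome 6, 127104788 to 127104847, mm8), had levels of 4.37, 3.64, 3.86 and 3.85 in WT and 4.63, 3.99, 4.21 and 4.22 in PKR2 hearts, means of 3.93 ± 0.31 in WT and 4.26 ± 0.27 in PKR2 hearts (SD, n = 4). The difference was 0.34 (95% interval -0.12 to 0.79, limma adjusted p = 0.9997, exact p = 0.229), with WT 1 above 3 of the 4 PKR2 hearts and the other WT hearts below all of them. The 2 other Ccnd2 probes above background gave 0.41 and 0.19. When 1 array was left out the difference ran from 0.21 (without PKR2 1) to 0.48 (without WT 1), at 0.24 without WT 2. Without WT 1 the limma unadjusted p was 0.0304 and the adjusted p 0.853. Within slide 5 and within slide 6 the difference was 0.36 each, from 1 array a group. WT 1 was also the sole WT array at position 4 of its slide, and with position 4 as a covariate the difference was -0.11 (SE 0.27). In that fit WT 1 alone separates position from genotype.

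The other D cyclins, Ccnd1 and Ccnd3, had a difference of 0.10 (SE 0.19) and 0.18 (SE 0.19), and Ccne1, cyclin E1, of 0.11 (SE 0.17). Cdkn1a, the inhibitor p21, had a difference of 0.25 (SE 0.30). The Cdkn1a difference was 0.0069 with slide as a fixed block, 0.28 within slide 5 and -0.26 within slide 6. With position 4 as a covariate it was 0.84 (SE 0.42), the highest of all settings. When 1 array was left out it ran from 0.039 (without PKR2 2) to 0.43, at 0.051 without WT 1. Ccnd1 and Cdkn1a were each printed as 10 spots on every array. The SD between spots of 1 array lay between 0.025 and 0.076 for Ccnd1 and between 0.040 and 0.091 for Cdkn1a, and the SD between hearts of a group was 0.26 and 0.49.

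Ccna2, Ccnb2, Cdk1 and Foxm1, the tested S, G2 and M cyclins with Cdk1 and Foxm1, had 3 of 4 differences above 0 and a median of 0.080. The gene below 0 was Foxm1. Ccnb2, cyclin B2 (probe on chromosome 9, 70207028 to 70207087, mm8), had levels of -1.38, -1.49, -1.98 and -1.11 in WT and -1.38, -1.66, -1.64 and -1.098 in PKR2 hearts, with a difference of 0.047 (SE 0.22, exact p = 0.8). Ccna2, cyclin A2, had levels of -1.90, -2.20, -2.62 and -1.79 in WT and -1.70, -2.11, -2.30 and -1.67 in PKR2 hearts, with a difference of 0.18 (SE 0.23, exact p = 0.457). For both cyclins the lowest WT level was that of WT 3 and the highest levels of each group were those of WT 4 and PKR2 4. Cdk1 had a difference of 0.11 (SE 0.38) and Foxm1 of -0.22 (SE 0.30).

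Among the mitotic kinases and their partners, Cdc20, the activator of the anaphase-promoting complex, had levels of -0.91, -0.68, -0.999 and -0.96 in WT and -1.003, -0.74, -0.77 and -0.74 in PKR2 hearts, with a difference of 0.076 (SE 0.15, exact p = 0.486). The groups overlap, and PKR2 1 lay apart from the other PKR2 hearts. Aurka, the centrosomal Aurora kinase, had a difference of 0.042 (SE 0.15) and Plk1, Polo-like kinase 1, of -0.048 (SE 0.31). Of the centromere, spindle and cytokinesis genes, Cenpa, the histone variant that marks centromeres, had levels of 0.78, 1.096, 1.39 and 0.57 in WT and 0.58, 1.09, 0.94 and 0.82 in PKR2 hearts, with a difference of -0.11 (SE 0.21, exact p = 0.686). Birc5, survivin of the chromosomal passenger complex, had levels of -0.43, -0.77, -0.93 and -0.61 in WT and -0.85, -0.70, -1.16 and -0.70 in PKR2 hearts, with a difference of -0.17 (SE 0.17, exact p = 0.314). In neither gene were the groups apart. The kinetochore motor Cenpe had a difference of 0.11, the spindle proteins Kif20a, Kif23 and Nusap1 of -0.0016, 0.18 and -0.079, with SEs from 0.17 to 0.36.

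Mki67 (probe on chromosome 7, 135528251 to 135528310, mm8) encodes Ki-67, which coats mitotic chromosomes and is the usual histological mark of cycling cells. Its levels were -0.14, -0.94, -1.06 and -0.011 in WT 1 to WT 4 and -0.39, -0.97, -0.62 and -0.068 in PKR2 1 to PKR2 4. Means were -0.54 ± 0.54 in WT and -0.51 ± 0.38 in PKR2 hearts (SD, n = 4), a difference of 0.026 (95% interval -0.62 to 0.68, exact p = 0.886). A second, dimmer Mki67 probe, above background on 2 WT and 3 PKR2 arrays, gave a difference of 0.31, and the mean of both probes 0.17. This probe passed the filter through the PKR2 arrays, so both values carry that selection. In each group the level of the first probe was highest on the slide 6 array (WT 4 and PKR2 4), and it was low on WT 2, WT 3 and PKR2 2.

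Among the arrays of slides 5 and 6, most mitotic genes were ordered by slide and few by group. Each slide held 1 WT and 1 PKR2 heart, so the genotype is balanced, but slide and pair of hearts cannot be told apart, and this contrast was looked at after the values were seen and has no test. On both slide 6 arrays the level was above that of both slide 5 arrays in 19 of the 29 genes (65.5%, against 20.4% of all features), and it was below in 2 (6.90%, against 17.8%). The median of slide 6 minus slide 5 was 0.25, against 0.013 for all features. On the same 4 arrays both PKR2 hearts were above both WT hearts in 4 of the 29 genes (13.8%, against 16.9%) and below in 2 (6.90%, against 23.0%). Of the 14 tested genes of S phase, G2 and mitosis, 12 were above on slide 6 (85.7%), with a median of 0.56. Of the 15 genes of replication and G1 control, 7 were (46.7%), with a median of 0.17.

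Cdk1 (1.20), Nusap1 (1.06), Mki67 (0.80), Plk1 (0.78), Ccna2 (0.73), Ccnb2 (0.70) and Foxm1 (0.67) had the widest gaps between slide 6 and slide 5 in log2 difference of means. Nusap1, a microtubule-binding protein of the spindle, had levels of -2.68 (WT 3) and -3.16 (PKR2 3) on slide 5 and of -2.07 (WT 4) and -1.65 (PKR2 4) on slide 6, a gene picked for its gap. Cdk1, picked likewise, had -5.26 and -4.17 on slide 5 and -3.45 and -3.58 on slide 6. Cdk1 was above background on 1 of the 4 WT arrays. Mcm6 (-0.12) and Cenpa (-0.47) were the 2 genes lower on both slide 6 arrays. Among genes outside the list, 14 of 30 tested genes of G2 and mitosis (46.7%) and 6 of 36 of the replication fork (16.7%) were above on slide 6. By group, both PKR2 hearts were below both WT hearts in 16 of these 36 genes (44.4%, against 23.0% of all features). They were above in 8 of the 36 (22.2%, against 16.9%). In the 30 genes of G2 and mitosis they were below in 2 (6.67%) and above in 4 (13.3%). The scan range was not read from a label but inferred from the count of spots flagged as scaled up from a low scan. That count was 0 on both slide 6 arrays, taken as a single low range. It was 1174 (WT 3) and 1034 (PKR2 3) on slide 5, taken as an extended range. On these 4 arrays the inferred range goes with slide, so that range, slide and pair of hearts cannot be told apart. WT 2, the third array taken as low range, came from another slide and had an Mki67 level of -0.94. It had 14 of the 29 genes above their own mean, compared with 19 on WT 4, 23 on PKR2 4, 7 on WT 3 and 8 on PKR2 3. Marker levels relative to their own averages are given for WT, then PKR2. Endothelial markers had mean levels of 0.16 and 0.082 on slide 6 and -0.080 and -0.11 on slide 5. Leukocyte markers had 0.0085 and -0.23 on slide 6 and -0.28 and -0.043 on slide 5. The 3 tested erythroid markers had -0.12 and 0.32 on slide 6 and -0.42 and -1.53 on slide 5. Cardiomyocyte markers had -0.20 and -0.15 on slide 6 and -0.024 and -0.082 on slide 5. Fibroblast markers had 0.014 and -0.024 on slide 6 and 0.13 and 0.059 on slide 5. Adipocyte markers had 1.455 and 0.55 on slide 6 and -0.038 and 0.74 on slide 5. The part of these markers and of the scan range in the gap was not tested.

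**Figure D4:**
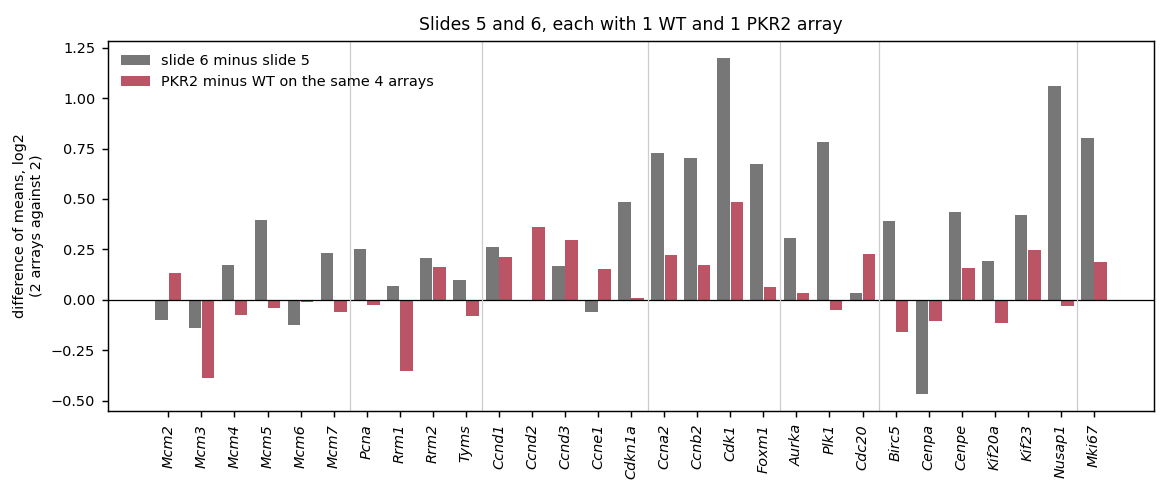
Difference of means on the 4 arrays of slides 5 and 6 for the 29 tested genes (vertical axis, log2): grey bars are slide 6 minus slide 5 and red bars PKR2 minus WT, 2 arrays against 2. The grey bars of Cdk1 and Nusap1 exceed 1, and 5 of 29 lie below 0 (Mcm2, Mcm3, Mcm6, Ccne1 and Cenpa).

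Of 36 tested further genes of origin firing and the replication fork, 0 passed at an adjusted p under 0.05, 15 lay above 0 and 21 below, with a median of -0.056. Pola2, a subunit of the polymerase that primes DNA synthesis, had a difference of 0.41 (SE 0.16, limma unadjusted p = 0.0302, adjusted p = 0.9997). Pold2, a subunit of polymerase delta, had levels of 0.065, -0.12, -0.075 and -0.23 in WT and 0.42, 0.11, 0.22 and 0.26 in PKR2 hearts, which do not overlap, a difference of 0.34 (SE 0.14, limma unadjusted p = 0.0391, adjusted p = 0.9997). They were the 2 of 36 genes with an unadjusted p under 0.05 and a higher level in PKR2 hearts (background 1.03%). None of the 20 further genes of G1 control and 15 p53 targets passed, with 0 at an unadjusted p under 0.05, and their medians were -0.029 and 0.0021. Of the G1 genes 9 lay above 0 and 11 below, and of the p53 targets 8 above and 7 below. Of 30 further genes of G2 and mitosis 0 passed, 13 lay above 0 and 17 below, and the median was -0.024. Cdca3, which promotes entry into mitosis, had a difference of -0.48 (SE 0.19, limma unadjusted p = 0.0324, adjusted p = 0.9997), the 1 gene of that list with an unadjusted p under 0.05 (lower in PKR2 hearts, background 1.39%). Pttg1, securin, had levels of 5.32, 5.47, 5.74 and 5.57 in WT and 5.23, 4.54, 5.32 and 5.22 in PKR2 hearts, which do not overlap. Its difference was -0.45 (SE 0.20, limma unadjusted p = 0.0517, adjusted p = 0.9997). Groups that do not overlap always give an exact p of 0.0286, the smallest that 70 relabelings allow. That p therefore adds nothing to the lack of overlap. The groups also did not overlap in Bub3, a spindle checkpoint protein, with a difference of 0.086 (limma unadjusted p = 0.506, adjusted p = 0.9997). Nor did they in the p53 target Sesn2, with a difference of -0.16 (limma unadjusted p = 0.233, adjusted p = 0.9997). These are 2 of 30 genes of G2 and mitosis and 1 of 15 p53 targets, beside 1 of 36 of the replication fork (Pold2), against a background of 1.61%.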

How the data were processed

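Spot intensity on a linear scale was read from the deposited scanner files, made per the file headers with Agilent Feature Extraction 9.5.1.1 (background subtracted, spatial trends removed). The authors' deposited table of normalized intensity, whose method the sources used here do not name, was an alternative. It correlated with the scanner signal at r of 0.991 to 0.998 over bright probes. Levels are log2 of the processed signal minus the array's 75th percentile. Control and outlier spots were left out, saturated spots kept, and spots of a probe averaged. Testing required a signal well above background on 3 or more arrays of either group (22812 of 41174 probes, 97 of them lacking an array); the brightest probe stood for a gene. Members were matched by the file's gene name, other probes through RefSeq GRCm38.p6 (24319 by accession, 8720 by symbol, 1718 keeping the file's name, 6357 without a symbol).

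Groups came from the labels' genotype. The tool was limma (version 3.58.1, functions lmFit and eBayes, run in R 4.3.3 with the package data.table, version 1.17.8), adjusted by Benjamini-Hochberg over 15660 features at 0.05; single values given with an exact p were tested by a two-sided permutation of all 70 relabelings, whose smallest p is 0.0286. The fit was tested on simulated data. How many arrays there were sets the precision. The members and lists were chosen with earlier results of these data known. Members with values on every array were, in each role group, the one with the highest level and the one with the smallest p. Genes of a pathway list were named where the unadjusted p was under 0.05 or the groups did not overlap. Whether a probe lies in a coding exon or a UTR was not looked up. Alternatives changed the background correction, scaling, filter, probe rule, slide, array position, variance model and arrays used. An adipocyte covariate and the scan range, inferred from the count of scaled-up spots, were chosen after seeing the data. Motif searches covered both strands.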

Additional observations from a re-analysis of the deposited data

Results flagged for a closer look

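Each group of 4 hearts was examined for a value far from the others (Dixon's ratio above its critical value at 95%), in 29 genes and both groups. Of 58 groups 3 met it, near the 1 in 20 that chance gives. For Pcna, WT 4 had a level of 3.003, and the other WT hearts lay between 2.57 and 2.60. For Cdc20, PKR2 1 had a level of -1.003, and the other PKR2 hearts lay between -0.77 and -0.74. For Kif20a, WT 1 had a level of -0.96, and the other WT hearts lay between -0.56 and -0.48.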

How the results depend on the processing

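No member passed the threshold under any alternative tested (smallest limma adjusted p 0.757, with slide as a fixed block). The median difference of the members lay between -0.043 and 0.13, and between -0.018 and 0.087 when 1 array was left out. The count of all features past the threshold was 0 in the text and 1 with median scaling, in the authors' deposited values, with probes above background on all 8 arrays, with slide as a random block, with position 4 as a covariate, with the trended robust variance and without PKR2 3 (0 to 1 when 1 array was left out). The number of members above background on all arrays used was 24 to 26 when 1 array was left out. It was 24 with any probe of the gene, a rule that includes the brightest probe. Of 662 single differences recomputed 105 changed sign, 15 of them within 1 slide and all from differences that had not passed; the cause was not tested. With the normexp background (offset 50), the values that changed sign were Mcm2 -0.071, Mcm4 0.23, Pcna 0.13, Rrm2 -0.33, Ccne1 -0.022, Ccna2 -0.12, Cdk1 -0.29, Aurka -0.13, Cdc20 -0.031, Cenpe -0.022, Kif23 -0.40 and Mki67 -0.089. With quantile normalization, the values that changed sign were Mcm4 0.023, Pcna 0.025 and Rrm2 -0.043. With median scaling, the values that changed sign were Rrm2 -0.051, Ccnb2 -0.016, Aurka -0.020 and Mki67 -0.036. In the authors' deposited values, the values that changed sign were Mcm4 0.11, Rrm2 -0.13, Cdk1 -0.013, Aurka -0.056, Kif23 -0.11 and Mki67 -0.065. With the mean of probes, the value that changed sign was Mcm3 0.082. With slide as a fixed block, the values that changed sign were Mcm6 -0.013, Mcm7 -0.062 and Foxm1 0.063. With position 4 as a covariate, the values that changed sign were Mcm3 0.25, Mcm4 0.14, Pcna 0.10, Rrm2 -0.69, Tyms 0.077, Ccnd1 -0.24, Ccnd2 -0.11, Ccnd3 -0.16, Ccne1 -0.12, Ccna2 -0.043, Ccnb2 -0.061, Cenpa 0.074, Kif20a 0.32, Kif23 -0.46 and Mki67 -0.37. With the adipocyte level as a covariate, the values that changed sign were Pcna 0.11 and Plk1 0.14. With the inferred scan range as a block, the values that changed sign were Mcm4 0.034, Pcna 0.033, Rrm2 -0.038, Plk1 0.021 and Kif20a 0.056. Within slide 5, they were Mcm2 -0.075, Mcm5 0.38, Mcm6 -0.068, Pcna 0.13, Foxm1 0.0069, Aurka -0.12 and Plk1 0.14. Within slide 6, they were Mcm7 -0.15, Cdkn1a -0.26, Cdk1 -0.13, Foxm1 0.12, Cenpa 0.24, Kif20a 0.028, Nusap1 0.42 and Mki67 -0.057. When 1 array was left out, the ranges of those that changed sign were Mcm5 -0.16 to 0.14, Mcm6 -0.045 to 0.17, Plk1 -0.23 to 0.16, Nusap1 -0.27 to 0.23, Mcm4 -0.047 to 0.053, Rrm2 -0.14 to 0.25, Kif20a -0.13 to 0.13, Kif23 -0.037 to 0.40, Mki67 -0.15 to 0.20, Ccnb2 -0.12 to 0.17, Cdk1 -0.28 to 0.32, Cenpa -0.23 to 0.038, Pcna -0.071 to 0.088 and Aurka -0.050 to 0.10. On slides 5 and 6 the count of members above on slide 6 was 19 with normexp (background 41.9%), 18 with quantile normalization (background 23.1%), 16 with median scaling (background 16.8%), 20 in the authors' deposited values (background 26.1%) and 14 of 24 with the strict filter (background 19.7%). The mean of probes gave no value for detection, and the slides alone gave no test. The labels give no replicate numbers, so hearts were paired by slide alone, with slide as a block. Precision is limited by 4 hearts a group and, for dim probes, by signal near background.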
